A study of Mus musculus with 10 samples.

Results

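The 106 genes described here encode the enzymes of oxidative phosphorylation and a few of their close relatives. They are all genes among the 21792 with a value whose mouse symbol begins with mt-, *Nduf* followed by a, b, c, s or v, *Uqcr*, *Cox4* to *Cox8* or *Atp5*, together with *Sdha*, *Sdhb*, *Sdhc* and *Sdhd*. Of the 106, 13 are the protein genes of the mitochondrial genome, 80 are nuclear genes of structural subunits, 10 are nuclear assembly factors or related proteins (*Ndufaf1* to *Ndufaf8*, *Cox7a2l* and *Atp5s*) and 3 are pseudogenes. The 80 nuclear subunits divide into 36 of complex I, 4 of complex II, 8 of complex III, 16 of complex IV and 16 of complex V, and the 13 mitochondrial genes into 7, 0, 1, 3 and 2. A further 38 annotated genes fit the same name pattern and have no row in the values, among them 24 mitochondrial rRNA and tRNA genes, *Cox8b* and *Cox8c*.

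RNA was sequenced from the renal cortex of wild-type C57BL/6 male mice that were 8 weeks old at the start. The 6 mice with aristolochic acid nephropathy (AAN) had received aristolochic acid at 5 mg/kg by 1 intraperitoneal injection, and the 4 sham mice PBS in its place, 28 days before the kidneys were taken. Mice are named here by the tags in their labels (B607, for example), each has its own library, and nothing in the labels gives a batch. Values are fragments per kilobase of gene model, scaled to the fragments of the library (FPKM). Levels of different genes are thus given per length, but overlaps, copies and transcript length, described below, make comparisons between genes uncertain. Cortex tissue cannot tell apart fewer tubule cells from less RNA in each cell.

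Oxidative phosphorylation couples the oxidation of fuel to the making of ATP. Complex I (NADH dehydrogenase), complex II (succinate dehydrogenase), complex III (the cytochrome bc1 complex) and complex IV (cytochrome c oxidase) pass electrons to oxygen, and complex V is the ATP synthase driven by the proton gradient that complexes I, III and IV build. The catalytic cores of complexes I, III and IV and the proton channel of complex V hold subunits made from the mitochondrial genome, while complex II and all other subunits come from nuclear genes, so the enzymes are assembled from transcripts of both genomes. The proximal tubule of the renal cortex, which reabsorbs most of the filtered salt and solute, is among the tissues with the most mitochondria.

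The recovered depths were 15.8 to 17.5 M fragments in the sham mice and 13.4 to 16.5 M in the AAN mice. In these values the median gene was 0.75 higher in AAN on the log2 scale, and 82.3% of the 17129 genes tested lay above 0, so each difference below is also given relative to that median. A pair of libraries stood apart from its group. The AAN mouse B614 had a proximal tubule marker mean of 6.85 (log2), against 4.95 to 5.45 in the other 5 AAN mice, and the sham mouse B634 had values above 0 for 16690 genes, where B607, B636 and H249 had 17521 to 17639. Counts are therefore also given without both.

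The genes of the mitochondrial genome were the most abundant transcripts of the cortex, and in both groups they varied widely between mice. They made up 9 of the 10 genes with the highest mean FPKM and 12 of the highest 20. *mt-Co1*, the catalytic subunit of cytochrome c oxidase, was the highest, at 37245 (B607), 96317 (B634), 76818 (B636) and 54790 FPKM (H249) in the sham mice, and its lowest, median and highest AAN values were 24446, 33261 and 75005 FPKM. 4 of the 6 AAN mice were below every sham mouse, and B630 and B639 were within the sham range. *mt-Cytb*, the cytochrome b of complex III, was at 16431, 35694, 27660 and 23230 FPKM in the same sham mice and at 5703, 11790 and 27377 in AAN. *mt-Nd1*, a membrane subunit of complex I, was at 14832, 35376, 26025 and 18664 FPKM in the sham mice and at 6297, 11169 and 25838 in AAN. The groups overlapped in both genes, as they did in all 13.

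The lowest of the 13 was *mt-Nd6*, the only protein gene read from the other strand of the mitochondrial genome (chrM:13552-14070, minus strand, GRCm38). Its sham values were 216, 257, 234 and 158 FPKM, and its AAN values 57.5, 93.5 and 187 (lowest, median and highest). *mt-Co1* stood 172 to 374 times higher than *mt-Nd6* in the sham mice and 311 to 580 times higher in the AAN mice. *mt-Nd6* shares its last bases with *mt-Nd5* on the opposite strand (chrM:11742-13565), and the use of strand in counting is not stated, so the reads of this stretch cannot be told apart.

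**Figure D1:**
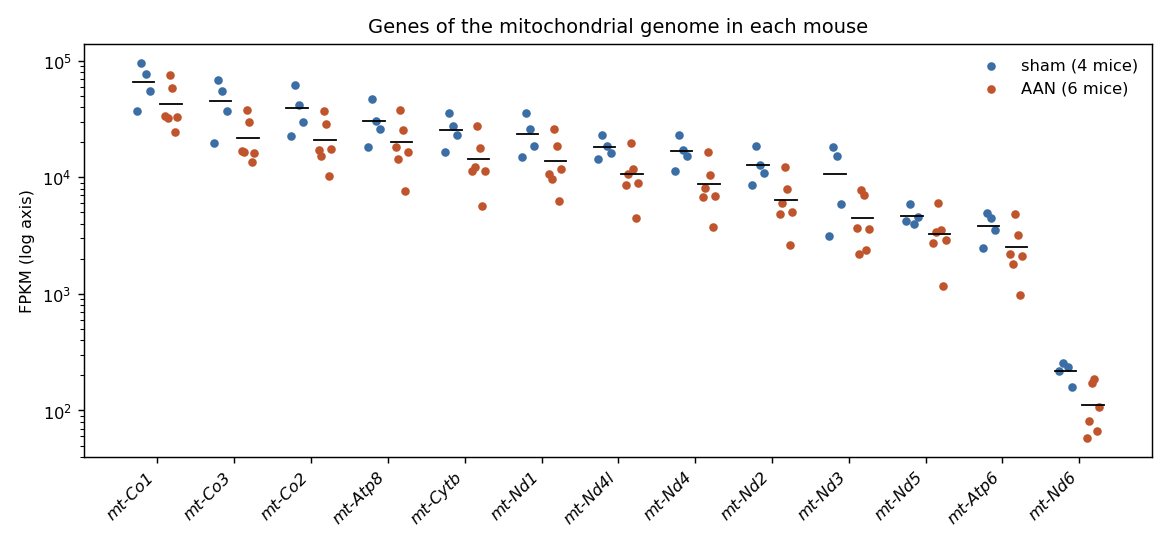
FPKM (log axis) of the 13 protein genes of the mitochondrial genome in each of 4 sham and 6 AAN mice, ordered by the sham mean, with a bar at each group mean. The AAN mean lies below the sham mean in all 13 genes, the groups overlap in all 13, and *mt-Nd6* stands far below the rest.

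All 13 mitochondrial genes had a lower mean log2 value in AAN, by 0.65 (*mt-Nd5*) to 1.10 (*mt-Nd3*), with a median difference of -0.92, or -1.67 relative to the median gene. In the limma test across all genes 5 of the 13 fell at an adjusted p of at most 0.05, against 6.00% of all genes tested. With the fold limit of 2 added, 4 of the 13 were called lower, against 3.43% of all genes. These 4 were *mt-Nd2* (-1.09, SE 0.38, limma adjusted p = 0.0281), *mt-Nd6* (-1.08, SE 0.33, adjusted p = 0.0149) and *mt-Nd4* (-1.03, SE 0.37, adjusted p = 0.0307), which encode membrane subunits of complex I, and *mt-Co3* (-1.01, SE 0.40, adjusted p = 0.0471), a core subunit of complex IV. *mt-Nd4l* passed the p limit alone (-0.87, SE 0.35, limma adjusted p = 0.0490). *mt-Nd3* had the largest difference and missed it (-1.10, SE 0.53, limma adjusted p = 0.0894), with sham values of 3153, 18265, 15265 and 5964 FPKM. The others missed the p limit, from *mt-Cytb* (-0.95, SE 0.40, limma adjusted p = 0.0539) and *mt-Co2* (-0.92, SE 0.39, adjusted p = 0.0578) to *mt-Atp8* (-0.68, SE 0.42, adjusted p = 0.179). None of the 13 was higher.

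The calls among the mitochondrial genes rested on single mice. Without the sham mouse B634, the AAN mouse A483 or the AAN mouse B642 none of the 13 was called lower at 2-fold, without B636 or B666 it was 1, without H249 2, without B607 7 and without B630 8. In these settings 524 to 645 of the 17033 to 17233 genes tested were called lower. Without both B614 and B634 the count of mitochondrial genes called lower was 0, against 4.63% of all genes. At the p limit alone 0 also passed, against 1328 of 17204 genes, with 1 at an unadjusted limma p under 0.05. After rescaling each library by the median of ratios, which moved the median gene to 0.05, all 13 were called lower, against 10.7% of all genes. After quantile normalization, which gives each rank the same value in every mouse and so holds the most abundant genes nearly level, 1 of the 13 (*mt-Nd6*) was called lower, against 12.1% of all genes, and 5 of the 13 turned to the other sign. With the same FPKM total in every library 0 were called lower, against 1.92% of all genes, and 2 passed the p limit alone, against 2.53%.

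Several mitochondrial genes overlap each other or have a near-identical copy in the nuclear genome. *mt-Atp8* (chrM:7766-7969) and *mt-Atp6* (chrM:7927-8607) lie on 1 mRNA and share 43 bases, and *mt-Nd4l* (chrM:9877-10173) and *mt-Nd4* (chrM:10167-11544) lie on another and share 7. The first overlap is shown because reads across it belong to both genes of complex V.

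mt-Atp8/mt-Atp6 overlap, chrM:7927-7969: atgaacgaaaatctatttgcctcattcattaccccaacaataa

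Although on 1 mRNA, *mt-Atp8* was listed 6.82 to 9.48 times higher than *mt-Atp6* per length in the sham mice and 7.77 to 8.36 times higher in the AAN mice. *mt-Nd4l* was listed at 0.997 to 1.25 times *mt-Nd4* in the sham mice and at 1.12 to 1.31 times in AAN. A row of annotated nuclear pseudogenes on chromosome 1 (within chr1:24611535-24616197) carries sequence of 7 of the 13 genes. The bases between these pseudogenes were not compared. *Gm10925* equals *mt-Atp6* over 678 bases without a mismatch, *Gm28661* equals *mt-Co2* over 681 and *Gm28437* equals *mt-Co3* over 783, while *Gm28438*, *Gm10222* and *Gm28439* equal parts of *mt-Nd3*, *mt-Nd4l* and *mt-Nd4*. *Gm29216* differs from the end of *mt-Co1* at 1 base (A1066T, counted from the first base of *mt-Co1*). *Gm10925* was listed at 2444, 9110, 5521 and 3866 FPKM in the sham mice, beside 2466, 4982, 4462 and 3541 for *mt-Atp6*. It held 49.7% to 64.5% of the fragments of the pair, and the other 6 copies held 2.27% to 20.5% of theirs. The levels of these 7 genes are thus uncertain. With the fragments of the copies added to them, the count of mitochondrial genes called lower at 2-fold was 3, the difference of *mt-Atp6* was -0.77 (limma adjusted p = 0.147) in place of -0.74 (adjusted p = 0.116), and *mt-Co3* and *mt-Nd4l* no longer passed the p limit (adjusted p = 0.0538 and 0.0550). *mt-Nd1*, *mt-Cytb*, *mt-Nd5* and *mt-Nd6* matched no such copy. *mt-Atp8* was assigned no copy of its own, but its end, which overlaps the start of *mt-Atp6*, is also in *Gm10925*. The level of *mt-Atp8* is thus uncertain as well.

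A further copy of *mt-Co1*, *Gm13340* on chromosome 2, agrees at 97.6% of its bases and was listed at 434 to 748 FPKM in the sham mice and 210 to 718 in AAN. The stretch below shows how reads of both can be told apart: capitals mark the 4 bases that differ (G696A, T699C, G717A and C720T, counted from the first base of *mt-Co1*).

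mt-Co1, chrM:6017-6077, plus strand: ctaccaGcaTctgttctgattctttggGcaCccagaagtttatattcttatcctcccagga
Gm13340, chr2:22588898-22588958, minus strand: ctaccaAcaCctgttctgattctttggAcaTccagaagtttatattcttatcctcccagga

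Most nuclear subunits were lower as well, with a narrower spread between mice. Of the 80, 74 had a lower mean log2 value in AAN and 78 lay below the median gene. 38 of the 80 fell at an adjusted p of at most 0.05 in limma, against 6.00% of all genes, and 3 rose (*Cox6b2*, *Ndufa4l2* and *Cox7c*), against 55.4% of all genes. At the fold limit of 2, 0 were called lower, against 3.43% of all genes, while 40 had an unadjusted limma p under 0.05 in that direction, and 2 were called higher (*Cox6b2* and *Ndufa4l2*), against 35.8%. The AAN values lay wholly below the sham values in 18 of the 80, against 3.25% of all genes, and wholly above them in 2, against 40.3%. The median difference was -0.52, or -1.27 relative to the median gene. After the median of ratios 67 of the 80 were called lower at 2-fold, against 10.7% of all genes, 74 passed the p limit alone, against 21.2%, and 0 were called higher, against 18.8%, with 1 (*Cox6b2*) higher at the p limit alone, against 25.7%. After quantile normalization 8 were called lower, against 12.1%, 44 passed the p limit alone, against 24.7%, and 0 were called higher, against 14.4%, with 1 past the p limit alone, against 21.2%. Leaving out 1 mouse gave 0 to 4 called lower as listed, with 4 without B607, 3 without B614 and 1 without B639 or B642, and 6 were called without both B614 and B634, against 4.63% of all genes. The 2 called higher stood in each of these. With 1 mouse left out, 524 to 703 of the 17033 to 17233 genes tested were called lower and 5488 to 6684 higher. At the p limit alone, 24 fell without B636, against 878 of 17213 genes tested, and 25 without H249, against 807 of 17207. Without each other mouse 28 to 50 fell, against 899 to 1230 of the 17033 to 17233 genes tested. With the B tags alone 17 fell and 2 rose, against 4.04% and 47.1% of all genes. With each library scaled to the same FPKM total, which moved the median gene to 1.06, 1 fell, against 2.53% of all genes, and 4 rose, against 63.0%, with a median difference of -0.16.

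**Figure D2:**
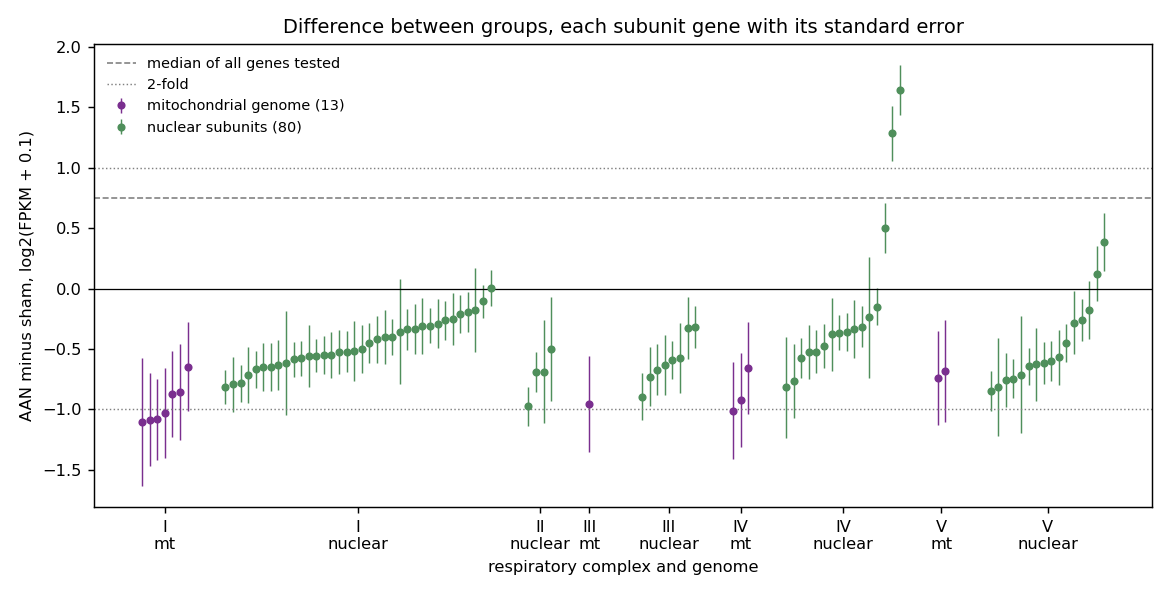
Difference between AAN and sham on the log2(FPKM + 0.1) scale, with its standard error, for each of 13 mitochondrial and 80 nuclear subunit genes, grouped by complex and genome. Nearly all points lie below 0 and below the dashed median of all genes (0.75). The 13 mitochondrial genes lie between -1.10 and -0.65, where the lowest nuclear subunits also lie, and *Cox6b2* and *Ndufa4l2* of complex IV lie above the 2-fold line.

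In complex I, 18 of the 36 nuclear subunits fell and 0 rose at the p limit of limma, against 6.00% and 55.4% of all genes, and the median difference was -0.51. With the same FPKM total 0 of the 36 fell (median -0.15), and with the B tags alone 7. *Ndufa10*, an accessory subunit, had the lowest difference: 47.8, 63.7, 61.9 and 61.4 FPKM in the sham mice and 30.2, 33.9 and 36.2 (lowest, median and highest) in AAN. The groups did not overlap (-0.82, SE 0.14, limma adjusted p = 3.5e-04). *Ndufa7* was the least changed of complex I, at 31.1 ± 4.65 FPKM (SD, n = 4) in sham and a difference of 0.01 (SE 0.15, limma adjusted p = 0.977). That value lay 0.74 below the median gene.

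Complex II, which has no mitochondrial gene, had a lower AAN mean in all 4 genes, of which *Sdhb* and *Sdhc* fell at the p limit and *Sdha* and *Sdhd* did not. *Sdhb*, the iron-sulfur subunit, had the lowest difference of all 80 nuclear subunits, at 122, 150, 157 and 168 FPKM in the sham mice and 66.5, 71.3 and 96.2 in AAN, with no overlap (-0.97, SE 0.16, limma adjusted p = 3.2e-04). *Sdhc*, a membrane anchor, was at 91.5, 81.1, 99.6 and 117 FPKM in sham and 50.3, 59.5 and 74.5 in AAN, with no overlap (-0.69, SE 0.16, limma adjusted p = 0.00336). *Sdha*, the flavoprotein that oxidises succinate, was instead spread over 186, 58.6, 77.3 and 128 FPKM in the sham mice and 34.0, 67.6 and 151 in AAN (-0.69, SE 0.42, limma adjusted p = 0.178). *Sdhd*, the other anchor, had the same order of sham mice (262, 95.3, 109 and 204 FPKM) and 56.3, 120 and 251 in AAN (-0.50, SE 0.43, limma adjusted p = 0.323). The ratio of *Sdha* to *Sdhb* was 1.53, 0.390, 0.491 and 0.765 in the sham mice and 0.496, 0.929 and 1.57 in AAN, so the subunits of 1 complex differed in proportion within each group.

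In complex III, 5 of the 8 nuclear subunits fell and 0 rose at that limit, against 6.00% and 55.4% of all genes, with a median difference of -0.61. With the same FPKM total 0 fell (median -0.25), and with the B tags alone 3. *Uqcrfs1*, the Rieske iron-sulfur protein, had the lowest difference: 245, 204, 205 and 254 FPKM in sham, 93.8, 121 and 182 in AAN, with no overlap (-0.89, SE 0.19, limma adjusted p = 0.00192). *Uqcrc2*, a core protein, was at 128, 77.7, 95.7 and 134 FPKM in sham and 49.7, 70.0 and 113 in AAN (-0.63, SE 0.24, limma adjusted p = 0.0411), with B614, at 113, inside the sham range. *Uqcrh*, the hinge protein, differed least (-0.32, SE 0.17, limma adjusted p = 0.128).

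In complex V, 8 of the 16 nuclear subunits fell and 0 rose at the p limit, against 6.00% and 55.4% of all genes, with a median difference of -0.61. With the same FPKM total 0 fell and 1 rose (median -0.24), and with the B tags alone 5 fell. *Atp5d*, the delta subunit of the central stalk, had the lowest difference: 109, 112, 131 and 121 FPKM in sham and 49.6, 65.4 and 79.2 in AAN, with no overlap (-0.85, SE 0.16, limma adjusted p = 8.5e-04). *Atp5b*, the catalytic beta subunit, had the widest spread of the genes named here for complex V, at 449, 124, 146 and 250 FPKM in sham and 61.4, 139 and 354 in AAN (-0.71, SE 0.49, limma adjusted p = 0.221). *Atp5g1*, *Atp5g2* and *Atp5g3* encode the same mature c subunit. *Atp5g3* held 91.7% to 93.3% of their summed FPKM in sham and 90.4% to 93.5% in AAN, and *Atp5g1* 6.23% to 7.64% and 5.13% to 8.61%. *Atp5g2* held 0.440% to 0.912% in sham and 0.946% to 1.83% in AAN, the share that did not overlap between the groups. *Atp5g2* had the highest difference of complex V (0.39, SE 0.24, limma adjusted p = 0.181), with 1.10 ± 0.296 FPKM (SD, n = 4) in sham, and 38.4% of its stretches of 50 bases occur in other genes. Its sign turned after the median of ratios (-0.32) and after quantile normalization (-0.74).

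Complex IV held the genes that rose. Of its 16 nuclear subunits 5 fell and 3 rose at the p limit of limma, against 6.00% and 55.4% of all genes, with a median difference of -0.36. With the same FPKM total 0 fell and 3 rose, and with the B tags alone 0 fell and 2 rose. *Cox4i1*, the ubiquitous regulatory subunit, was at 274, 236, 293 and 321 FPKM in sham and 200, 217 and 242 in AAN (-0.36, SE 0.15, limma adjusted p = 0.0471). *Cox6a1* (-0.52, SE 0.18, limma adjusted p = 0.0252), *Cox6b1* (-0.48, SE 0.18, adjusted p = 0.0364) and *Cox7a2* (-0.57, SE 0.16, adjusted p = 0.00933), the isoforms of most tissues, fell as well, and *Cox8a* missed the limit (-0.36, SE 0.16, limma adjusted p = 0.0709). These are among the most abundant nuclear subunits, with *Cox8a* at 1103 ± 160 FPKM (SD, n = 4) and *Cox6b1* at 943 ± 173 in sham.

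*Cox6b2*, the isoform of *Cox6b1* known from testis, was the subunit with the largest rise. Its values were 1.02, 1.80, 2.03 and 1.73 FPKM in sham and 4.15, 5.27 and 6.46 (lowest, median and highest) in AAN, with no overlap (1.64, SE 0.21, limma adjusted p = 3.5e-05). It was 0.90 above the median gene, and after the median of ratios 0.91 (adjusted p = 0.00946), under the fold limit. Its share of the summed FPKM of *Cox6b2* and *Cox6b1* was 0.148% to 0.191% in sham and 0.707% to 1.02% in AAN. *Ndufa4l2*, the hypoxia-induced relative of the complex IV subunit *Ndufa4*, was at 2.44, 2.83, 3.61 and 2.91 FPKM in sham and 4.90, 7.51 and 10.4 in AAN, again without overlap (1.28, SE 0.23, limma adjusted p = 4.5e-04). It was 0.54 above the median gene, and after the median of ratios 0.54 with an adjusted p of 0.0725 in limma. Its share of the summed FPKM of *Ndufa4l2* and *Ndufa4* went from 2.50% to 4.15% in the sham mice to 7.16% to 14.3% in the AAN mice. Both genes go against the 38 nuclear subunits that fell, and both remain minor forms in every mouse. *Cox7c* passed the p limit alone (0.50, SE 0.20, limma adjusted p = 0.0496), but 22.1% of its stretches of 50 bases occur in other genes, and the pseudogene *Gm10012* with which it shares most was listed higher, at 9.999 FPKM against 5.12 for *Cox7c* in sham, and 7.33 against 7.32 in AAN.

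The isoforms of muscle did not follow *Cox6b2*. *Cox7a1*, of heart and skeletal muscle, fell (-0.76, SE 0.31, limma adjusted p = 0.0472), from 16.3, 50.1, 36.9 and 21.3 FPKM in sham to 11.8, 18.1 and 21.6 in AAN, and *Cox6a2* was at 2.22 ± 1.05 FPKM (SD, n = 4) in sham and 1.19 ± 0.657 (n = 6) in AAN (-0.81, SE 0.42, limma adjusted p = 0.108). *Cox4i2*, the lung isoform of *Cox4i1*, stayed at or under 1.61 FPKM in every mouse (-0.24, SE 0.50, limma adjusted p = 0.693). The muscle markers were near 0 in these libraries: the 7 of 8 listed summed to 0.161 to 0.341 FPKM in sham and 0.579 to 1.64 in AAN.

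**Figure D3:**
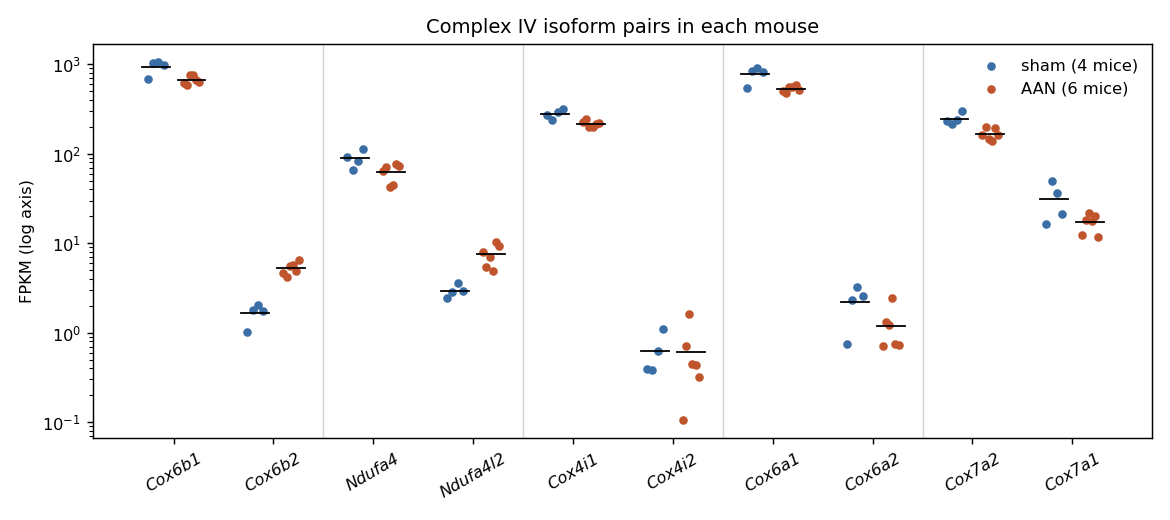
FPKM (log axis) of the 5 isoform pairs of complex IV in each of 4 sham and 6 AAN mice, with a bar at each group mean. *Cox6b2* and *Ndufa4l2* are higher in all 6 AAN mice than in any sham mouse, while their major forms *Cox6b1* and *Ndufa4* have lower AAN means.

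Within each mouse, mitochondrial transcripts stood far above nuclear ones in every complex. The mean log2(FPKM + 0.1) of the mitochondrial genes minus that of the nuclear subunits of the same complex was greatest in complex IV and least in complex I in all 10 mice. In complex IV it was 9.37, 10.51, 9.91 and 9.45 in the sham mice and 8.28, 8.95 and 9.92 (lowest, median and highest) in AAN, where the nuclear mean includes the minor isoforms. In complex I it was 6.63, 7.20, 6.78 and 6.47 in sham and 5.17, 6.25 and 7.26 in AAN. In complex III it was 6.98, 7.85, 7.38 and 7.12 in sham and 5.68, 6.81 and 8.21 in AAN, and in complex V 6.81, 7.88, 7.41 and 7.03 and 5.66, 6.99 and 8.44. The groups overlapped in each complex. The AAN mean was lower by 0.49 (SE 0.32) in complex I, 0.36 (SE 0.40) in III, 0.71 (SE 0.36) in IV and 0.23 (SE 0.45) in V. Without the AAN mouse B642 the differences were -0.27, -0.10, -0.55 and 0.044 in that order. All 4 turned positive after quantile normalization, which holds the most abundant genes nearly level, to 0.51, 0.58, 0.46 and 0.52. No test was made of these means.

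The nuclear class mean varied less between mice than the mitochondrial one. Over all 80 it was 5.82, 6.13, 6.22 and 6.21 in sham and 5.60, 5.66 and 5.80 in AAN. No AAN mouse reached a sham mouse in the values as listed, but B607 (5.82) and B642 (5.80) nearly met. As a share of the FPKM total the nuclear subunits overlapped, at 1.64% to 2.30% in sham and 1.39% to 2.30% in AAN. The mean of the 13 mitochondrial genes was 13, 14.19, 13.80 and 13.40 in sham and 11.73, 12.53 and 13.71 in AAN. The SD of the mitochondrial mean was 0.51 (n = 4) and 0.69 (n = 6), and that of the nuclear mean 0.19 and 0.07.

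**Figure D4:**
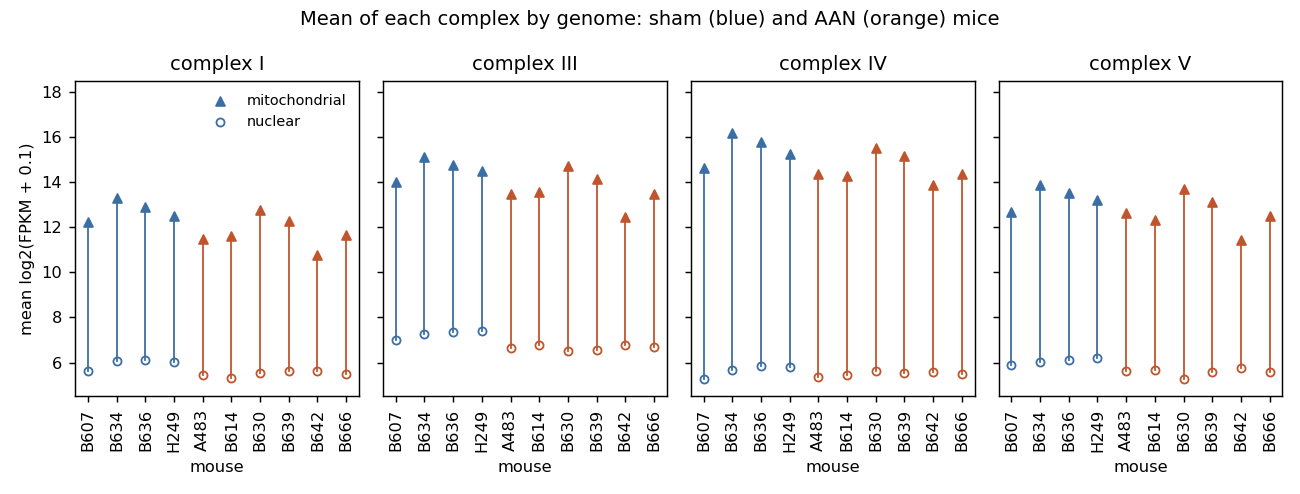
Mean log2(FPKM + 0.1) of the mitochondrial (triangles) and nuclear (circles) subunit genes of complexes I, III, IV and V in each mouse, joined by a line. The lines are longest in complex IV, and in each panel the triangles vary more between mice than the circles.

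For 1 pair of genes in each of complexes III, IV and V the mitochondrial and the nuclear partner were compared in the same mouse, which no scaling by a factor can alter. The log2 value of *mt-Cytb* minus that of *Uqcrc2* was 7.86 ± 0.81 (SD, n = 4) in sham and 7.54 ± 1.03 (n = 6) in AAN, a difference of -0.32 (SE 0.59, exact two-sided permutation test, p = 0.61). *mt-Co1* minus *Cox4i1* was 7.80 ± 0.70 and 7.51 ± 0.69, a difference of -0.29 (SE 0.45, exact p = 0.51). *mt-Atp6* minus *Atp5b* was 4.14 ± 1.29 and 4.11 ± 1.55, a difference of -0.03 (SE 0.90, exact p = 0.976). Each p adjusted over the 4 pairs tested, 1 of which is not reported here, was 0.976, and the smallest p that 4 against 6 mice can give is 0.00476. Differences of the size of these standard errors could not be detected. The spread between mice was far larger than the difference between groups: *mt-Atp6* minus *Atp5b* ran from 2.46 (B607) to 5.33 (B634) in sham and from 2.34 (B614) to 6.29 (B630) in AAN. After quantile normalization the 3 differences were 0.62, 0.42 and 0.27 (exact p = 0.0286, 0.019 and 0.738, adjusted p = 0.0571, 0.0571 and 0.738). That step holds the most abundant genes nearly level, with *mt-Cytb* at -0.04 and *mt-Co1* at 0 between the groups. The first 2 differences thus largely restate the lower AAN values of *Uqcrc2* and *Cox4i1*, and their p-values cannot tell how the mitochondrial partner moved.

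The spread had an order of its own. The 13 mitochondrial genes took 16.5%, 40.8%, 31.2% and 23.4% of the fragments of the sham libraries and 8.25%, 12.9% and 29.3% (lowest, median and highest) of the AAN libraries, and 39.5%, 61.4%, 54.0% and 46.2% of the sham FPKM total against 21.4%, 33.6% and 55.0% in AAN. With the 7 copies of chromosome 1 the share of fragments was 17.5% to 45.1% in sham and 8.86% to 31.7% in AAN. Since FPKM is relative to all fragments, what these genes take is not left for others. Scaled to the fragments outside the mitochondrial genes, the median gene was 0.56 higher in AAN, the count called lower was 3 of 13 mitochondrial and 7 of 80 nuclear genes, against 4.63% of all genes, and 49 nuclear subunits passed the p limit alone, against 8.89%.

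From B607, the lowest, through H249 and B636 to B634, 11 of the 13 mitochondrial genes had the same order of sham mice as *mt-Co1*, the exceptions being *mt-Nd5* and *mt-Nd6*. Among the nuclear subunits, 12 of 80 (15%) had that order, against 3.29% of all genes tested, and 4 (*Atp5b*, *Sdha*, *Sdhd* and *Ndufs1*) had the exact reverse, 5.00% against 24.9% of all genes. The 12 were *Ndufa2*, *Ndufa3*, *Ndufa10*, *Ndufa13*, *Ndufb2*, *Ndufb4*, *Ndufc1*, *Ndufc2*, *Ndufv2*, *Cox7a1*, *Atp5e* and *Atp5j*. This order was noticed in the values and is a description. The proximal tubule marker mean had the reverse order too, at 7.68 (B607), 6.69 (B634), 7.05 (B636) and 7.22 (H249). In AAN the same 3 nuclear genes *Atp5b*, *Sdha* and *Sdhd* were highest in B614, where the proximal tubule markers were highest.

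Scaled to the fragments outside the mitochondrial genes, *Sdha* and *Atp5b* kept the reverse order, and in *Sdhd* B634 (161) and B636 (158) changed places: *Sdha* was at 222, 99.0, 112 and 167 in the sham mice and *Atp5b* at 538, 209, 212 and 326. Libraries also differed by the length of transcripts. Outside the members, the longest 20% of protein-coding genes minus the shortest 20%, as the median log2 deviation from the mean of all mice, was 0.49, -0.39, -0.36 and -0.29 in the sham mice and -0.10, 0.02 and 0.65 (B614) in AAN. Among the 80 subunits, the 40 longer minus the 40 shorter had 0.32, 0.05, 0.04 and 0.20 in sham and -0.24, -0.13 and 0.18 (B614) in AAN. The part of transcript length and of the proximal tubule share in these spreads was not tested.

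**Figure D5:**
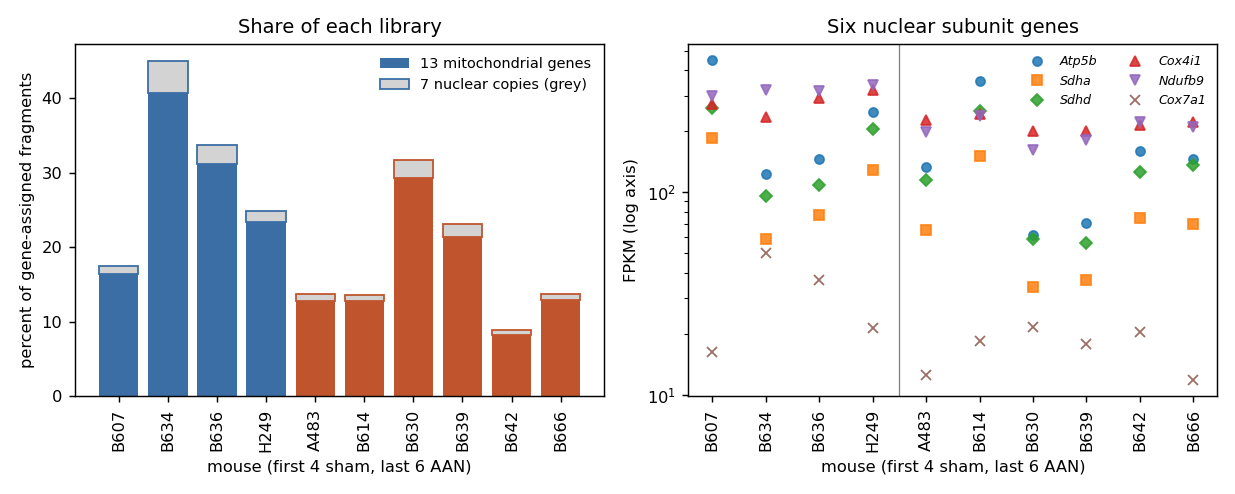
Left, percent of the fragments of each library in the 13 mitochondrial genes (coloured) and their 7 copies on chromosome 1 (grey). Right, FPKM (log axis) of 6 nuclear subunit genes in the same mice. *Atp5b*, *Sdha* and *Sdhd* are highest in B607 among the sham mice, where the mitochondrial share is lowest, and in B614 among the AAN mice, where it is not (12.8%, against 8.25% in B642), *Cox7a1* is highest in B634, and *Cox4i1* and *Ndufb9* are nearly level within each group.

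The assembly factors were split in direction as listed, and the split depended on the scaling. Of the 10, 4 were below 0 and 9 below the median gene, and 2 fell and 1 rose at the p limit of limma, against 6.00% and 55.4% of all genes. After the median of ratios 9 were below 0, and 6 fell and 0 rose, against 21.2% and 25.7%. With the same FPKM total 2 were below 0, and 0 fell and 2 rose, against 2.53% and 63.0%. *Ndufaf6* had the lowest difference (-0.46, SE 0.16, limma adjusted p = 0.0293), from 4.22 ± 0.978 FPKM (SD, n = 4) to 3.0 ± 0.248 (n = 6). *Cox7a2l*, a protein linked to supercomplexes of III and IV, rose at the p limit alone (0.76, SE 0.25, limma adjusted p = 0.0185), at 81.6, 42.4, 47.1 and 73.1 FPKM in sham and 66.6, 107 and 134 in AAN. That is a rise by about as much as the median gene, and after the median of ratios its difference was 0.001 (adjusted p = 0.996). Of the pseudogenes *Atp5k-ps2* was called lower (-1.04, SE 0.36, limma adjusted p = 0.0249).

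Genes that work beside these enzymes were read in 8 lists, by the same limma fit, and lowest and highest refer to the difference between AAN and sham. Of all genes, 6.00% fell and 55.4% rose at the p limit, and 3.43% and 35.8% were called lower and higher at 2-fold. All 13 genes of the TCA cycle were below 0, 7 fell and 0 rose at the p limit, and 2 were called lower at 2-fold, with a median of -0.59. *Suclg2*, of succinyl-CoA ligase, was lowest and missed the limit (-1.18, SE 0.59, limma adjusted p = 0.101), and *Cs*, citrate synthase, the highest (-0.04, SE 0.16, adjusted p = 0.845). Of the 8 genes of complex III and cytochrome c outside the name pattern 2 fell and 0 rose (median -0.26), and *Cyc1*, cytochrome c1, was lowest (-0.76, SE 0.24, limma adjusted p = 0.0159). *Uqcc2* was highest (0.45, SE 0.37, adjusted p = 0.305). Of the 21 assembly genes of complex IV 1 fell and 1 rose (median -0.10), with *Coa6* lowest (-0.49, SE 0.17, limma adjusted p = 0.0262) and *Pet117* highest (0.78, SE 1.02, adjusted p = 0.523). Of the 7 assembly genes of complexes II and V, *Tmem70*, needed for ATP synthase assembly, fell (-0.69, SE 0.19, limma adjusted p = 0.00866) and *Sdhaf2*, which attaches the flavin to SDHA, rose (0.54, SE 0.15, adjusted p = 0.00828).

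Genes that keep and read the mitochondrial genome had a median difference above 0 and below the median gene. Of the 18 genes of mitochondrial DNA transcription and maintenance 0 fell and 7 rose, 2 of them by the fold limit, with a median of 0.41, where 55.4% of all genes rose and 35.8% passed the fold limit. *Mterf1a*, a transcription termination factor, was highest (1.08, SE 0.28, limma adjusted p = 0.00538), at 0.435 ± 0.105 FPKM (SD, n = 4) in sham, and *Twnk*, the mitochondrial helicase, lowest (-0.10, SE 0.15, adjusted p = 0.596). After the median of ratios, which moved the median gene to 0.05, 8 of the 18 fell and 0 rose at the p limit, against 21.2% and 25.7% of all genes. Of the 16 tested genes of mitochondrial RNA processing 2 fell and 2 rose, with *Hsd17b10*, a subunit of mitochondrial RNase P, lowest (-0.59, SE 0.13, limma adjusted p = 0.00191) and *Mtpap*, the mitochondrial poly(A) polymerase, highest (0.73, SE 0.13, adjusted p = 4.6e-04). Of 12 regulators of mitochondrial biogenesis 1 fell and 4 rose, against 6.00% and 55.4% of all genes. *Pprc1*, a coactivator of the PGC-1 family, rose (1.11, SE 0.21, limma adjusted p = 8.0e-04), and *Esrrb*, an orphan nuclear receptor, was lowest (-1.08, SE 0.46, adjusted p = 0.0617). Of the 12 tested carriers, porins, uncoupling and import genes 1 fell and 1 rose, both past the fold limit. *Slc25a5*, an ADP/ATP carrier, fell (-1.11, SE 0.36, limma adjusted p = 0.0189), and *Ucp2*, the uncoupling protein of many tissues, rose from 11.5 ± 0.473 FPKM (SD, n = 4) to 59.5 ± 14 (n = 6; 2.32, SE 0.20, adjusted p = 1.7e-06).

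Promoters of nuclear subunits were searched for 4 motifs on both strands, because nuclear genes of oxidative phosphorylation are known to share binding sequences of a few factors. RefSeq promoters (GRCm38.p6, 250 bases before and 50 after the start) matched 64 of the 80 by Ensembl id or symbol. A gene was counted where any of its promoters held the motif. GCGCATGCG, the core of the site of NRF1, was in 12.5% of the 64 and in 1.95% of all 27025 genes with a promoter. CCGGAAG, of ETS factors such as GABP, was in 25.0% and 9.93%, AAGGTCA, of the ERR receptors, in 12.5% and 5.38%, and AAGATGGC, of YY1, in 14.1% and 3.19%. A match is a stretch of letters and not a measured site. The promoters of *Cox6b1*, which fell, and *Cox6b2*, which rose, are shown because the isoforms moved apart, with that of *Uqcrc1*, which fell (-0.73, SE 0.24, limma adjusted p = 0.0212), as an example with the NRF1 letters. Capitals mark CCGGAAG in *Cox6b1*, which lies on the strand opposite to the printed one and so reads CTTCCGG. In *Uqcrc1* they mark GCGCATGCG, matched on both strands with an overlap. None of the 4 motifs is in the *Cox6b2* window.

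Cox6b1, chr7:30626065-30626364, minus strand: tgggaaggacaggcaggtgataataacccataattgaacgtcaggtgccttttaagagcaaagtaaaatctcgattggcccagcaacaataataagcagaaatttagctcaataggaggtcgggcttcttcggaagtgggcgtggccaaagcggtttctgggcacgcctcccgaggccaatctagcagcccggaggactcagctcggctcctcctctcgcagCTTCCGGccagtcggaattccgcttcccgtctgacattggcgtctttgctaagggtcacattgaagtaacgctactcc
Cox6b2, chr7:4753045-4753344, minus strand: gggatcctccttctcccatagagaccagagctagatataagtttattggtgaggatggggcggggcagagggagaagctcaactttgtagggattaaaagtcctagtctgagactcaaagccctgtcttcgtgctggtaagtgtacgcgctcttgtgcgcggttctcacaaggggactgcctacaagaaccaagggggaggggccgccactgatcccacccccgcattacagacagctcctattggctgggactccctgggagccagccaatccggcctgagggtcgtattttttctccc
Uqcrc1, chr9:108936398-108936697, plus strand: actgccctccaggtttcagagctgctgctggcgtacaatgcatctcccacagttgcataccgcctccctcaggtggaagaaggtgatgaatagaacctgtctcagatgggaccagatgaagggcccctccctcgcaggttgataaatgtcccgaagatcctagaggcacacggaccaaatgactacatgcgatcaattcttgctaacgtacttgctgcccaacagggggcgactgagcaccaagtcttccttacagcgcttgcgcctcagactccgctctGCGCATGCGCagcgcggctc

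Some nuclear subunits share sequence with other genes, and how shared fragments were counted is not stated. Of the 80, 42 have at least 1 stretch of 50 bases that occurs in another gene, and 4 have over 20% of their stretches shared (*Atp5g2*, *Uqcrb*, *Cox7c* and *Ndufs5*). Among the copies with a value, some were listed above the gene they share with. *Gm11273*, which shares 11.9% of *Cox5b*, was at 480 ± 151 FPKM (SD, n = 4) in sham, above *Cox5b* itself at a sham mean of 143. *Gm10250*, which shares 19.1% of *Atp5h*, was at 374 ± 81.1 FPKM, against 78.8 for *Atp5h*. Levels of such genes are uncertain. *Sdha*, *Sdhb*, *Cox6b2* and *Ndufa4l2* share no such stretch.

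Markers of kidney cell types moved with the groups beside all of these genes. In sham, the mean log2(FPKM + 0.1) of the 10 proximal tubule markers was 6.69 to 7.68, and 4.95 to 6.85 in AAN, and 8 of the 10 fell at the p limit of limma. The 5 thick limb markers were at 5.17 to 6.10 and 4.39 to 6.40, with 1 fallen, and the 8 of the distal tubule and collecting duct at 4.68 to 5.34 and 3.75 to 5.59, with 2 fallen. All 8 injured tubule markers rose, from a mean of 0.93 to 1.41 to one of 5.5 to 6.65, as did all 8 leukocyte markers (-0.02 to 0.97 and 4.12 to 5.16) and all 8 of fibroblasts and pericytes (1.74 to 2.20 and 3.99 to 4.98). Of the 5 podocyte markers 1 rose (1.63 to 2.34 and 1.98 to 3.16) and of the 6 endothelial markers 2 rose (2.06 to 2.87 and 2.56 to 3.15), where 55.4% of all genes rose. Of the fat markers 2 passed the filter and both rose, at a summed 3.46 to 7.61 FPKM over the 6 listed in sham and 9.92 to 14.6 in AAN. The part of these cells in the values of the subunits was not tested.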

How the data were processed

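RNA-seq of the renal cortex of 4 sham and 6 AAN mice was used, 1 library per mouse, grouped by the labels. The authors prepared paired-end TruSeq libraries, removed rRNA, adapter, short and low-quality reads, aligned with Hisat2 to GRCm38.p4 and deposited FPKM for known gene models from Stringtie. Strand use, poly(A) selection and the annotation release are not given in the sources used here.

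Symbols, positions and lengths came from GENCODE mouse release 21 (21650 of the 21792 genes). Depth was recovered from low FPKM of genes with 1 transcript (94.5% to 96.8% whole within 0.05 of a fragment). The authors tested counts with edgeR, which could not be run on FPKM, so limma 3.58.1 in R 4.3.3 (trend, robust) was fitted to log2(FPKM + 0.1). A mean of 0.1 FPKM over the mice was required, which 17129 genes reached, all 106 members among them. All p-values are two-sided. Adjusted p-values are Benjamini-Hochberg, over all genes tested for limma and over the 4 pairs for the permutation tests. A gene was called where its adjusted p did not exceed 0.05 and its fold change was 2 or more, or 0.5 or less. Fold changes on this scale understate low genes. The fit was tested on simulated data. Pairs of genes were compared by exact permutation over 210 divisions of the mice. Copies of mitochondrial genes were found by aligning transcripts of that release, among pseudogenes annotated as unprocessed with a mean of at least 1 FPKM. Scripts ran in Python 3.11.15 with pandas 2.3.3 and numpy 2.4.6, and figures were drawn with matplotlib 3.10.9.

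The members, lists and rules were chosen with earlier results of these data known. Named genes were the 13 mitochondrial genes, the nuclear partners of the pairs, the 4 genes of complex II, the highest and lowest nuclear subunit of each other complex (mean of at least 1 FPKM), isoform genes, the highest and lowest assembly factor and gene of each list, and called members going against their class. *Cox7c*, *Uqcrc1*, the *Atp5g* genes, the genes in sham order and the copies were added after their values were seen. The alternatives were pseudocounts of 1 and 0.01, no filter or at least 1 FPKM, median of ratios, quantile normalization, the same FPKM total with or without the mitochondrial genes, limma without trend or robust, no fold limit, the B tags alone and each mouse left out. Added after seeing the data were values scaled to the fragments outside the mitochondrial genes, the addition of copies, and leaving out B614 and B634. P-values measure the spread between these mice.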

Additional observations from a re-analysis of the deposited data

Results flagged for a closer look

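A mouse far from the others of its group was sought in 106 groups of values (53 genes or measures, in the 4 sham and in the 6 AAN mice). 8 were found, and chance alone gives about 1 in 20, or 5.3.

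The AAN mouse B614 stood apart in 3 nuclear subunits. *Atp5b* was at 354 FPKM in B614 (61.4 to 160 in the other AAN mice), *Sdha* at 151 (34.0 to 74.7) and *Uqcrc2* at 113 (49.7 to 70.9). Its proximal tubule marker mean, 6.85 on the log2 scale, was the highest of the AAN mice and its difference of long and short genes (0.65) the highest of all 10 mice, and their part in these values was not tested.

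The sham mouse B607 had *Ndufa10* at 47.8 FPKM (B634, B636 and H249 were at 61.4 to 63.7), and the sham mouse H249 had *Ndufaf6* at 5.68 (3.60 to 3.81). The AAN mouse B639 had *Cox6a2* at 2.42 FPKM (0.714 to 1.31 in the other AAN mice). The share of *Cox6b2* in the sum of *Cox6b2* and *Cox6b1* was 1.02% in the AAN mouse B666 (0.707% to 0.75%), and that of *Cox4i2* in the sum of *Cox4i2* and *Cox4i1* was 0.799% in B630 (0.0457% to 0.293%).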

How the results depend on the processing

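The mitochondrial genes called lower, 4 as listed, numbered 13 after the median of ratios, 1 under quantile normalization, 0 with the same FPKM total, 1 in the mice with B tags alone, 0 without B614 and B634, and 0 to 8 with 1 mouse left out. The nuclear subunits called higher, 2 as listed, numbered 0 after the median of ratios and 0 under quantile normalization. The nuclear subunits called lower, 0 as listed, numbered 67 after the median of ratios, 8 under quantile normalization, 7 scaled to the fragments outside the mitochondrial genes, 6 without B614 and B634, 38 with no fold limit, and 0 to 4 with 1 mouse left out. The other settings kept these counts within 1.5 times. By construction the rescalings move the median gene: 0.75 as listed, 0.05 after the median of ratios, -0.12 under quantile normalization, 1.06 with the same FPKM total and 0.56 scaled to the fragments outside the mitochondrial genes.

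Under quantile normalization, which holds the most abundant genes nearly level, the pair differences turned positive (*mt-Cytb* minus *Uqcrc2* 0.62, *mt-Co1* minus *Cox4i1* 0.42, *mt-Atp6* minus *Atp5b* 0.27). They also did so without B614 and B634 (0.17, 0.086 and 0.73). With 1 mouse left out they ran from -0.63 to 0.0054, -0.53 to -0.0042 and -0.59 to 0.37 in that order, and none passed the p limit. The mitochondrial minus nuclear means moved under quantile normalization to 0.51 in complex I, 0.58 in III, 0.46 in IV and 0.51 over all complexes. In complex V the mean was 0.52 under quantile normalization and 0.049 without B614 and B634.

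Of the genes named, these changed sign. Under quantile normalization *mt-Nd2* was at 0.11, *mt-Nd4* at 0.065, *mt-Nd4l* at 0.24, *mt-Nd1* at 0.061, *mt-Atp8* at 0.19, *Ndufa7* at -0.31, *Atp5g2* at -0.74, *Pet117* at -0.28, *Sdhaf2* at -0.0066, *Mterf1a* at -0.16 and *Cs* at 0.015. After the median of ratios *Ndufa7* was at -0.76, *Atp5g2* at -0.32, *Uqcc2* at -0.31, *Sdhaf2* at -0.22 and *Mtpap* at -0.024. With the same FPKM total *Cox4i1* was at 0.00013, *Uqcrh* at 0.046, *Cox4i2* at 0.046, *Cox8a* at 0.0048, *Twnk* at 0.26 and *Cs* at 0.33. With B tags alone *Cox4i2* was at 0.34 and *Cs* at 0.018, and scaled to the fragments outside the mitochondrial genes *Ndufa7* was at -0.22. With 1 mouse left out *Ndufa7* ran from -0.10 to 0.062, *Cox4i2* from -0.55 to 0.059, *Cs* from -0.12 to 0.030, *Twnk* from -0.17 to 0.018 and *Pet117* from -0.054 to 1.42. Beyond the rescalings, the cause was not tested. Over the named genes and settings, 1053 values kept their sign and call, 71 gained and 58 lost a call.

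No paired analysis was possible because replicate numbers are not shared between groups. At 13.4 to 17.5 M fragments the abundant genes have little counting error, and the spread between mice sets their precision. Low genes rest on few fragments, among them *Cox6b2* (1.02 FPKM in B607), *Atp5g2* (0.757 FPKM in B607) and *Cox4i2* (0.104 FPKM in A483). Their values and shares also carry counting error.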
